A study of Mus musculus with 8 samples.

Results

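Toll-like receptors (TLRs) are membrane proteins with which cells of innate immunity detect microbial products and foreign or misplaced nucleic acids. Of the 54532 genes in the count table, 10 were taken by gene name as members of this family: Tlr1, Tlr2, Tlr3, Tlr4, Tlr5, Tlr6, Tlr7, Tlr8, Tlr9 and Tlr13. Their RNA was measured by bulk RNA-seq in 4T1 tumors of 8 mice, 4 on saline and 4 on mAb-DXd/IMQ. 4T1 is a mouse mammary carcinoma line used as a model of triple-negative breast cancer (TNBC), and the study's methods describe the injected cells as 4T1-FLuc, which carry firefly luciferase. The cells were placed under the skin of female BALB/cJ mice that were 6 weeks old, a strain that matches the line and keeps its immune system. mAb-DXd/IMQ is an antibody against CD276 that carries the TOP1 inhibitor DXd and the imidazoquinoline IMQ, an agonist of TLR7 and TLR8. Each dose was 16 mg/kg by vein, with 5 courses spaced 4 days apart, and tumors of both groups were collected at the end of the study. At that point the study reported a much smaller average tumor volume under mAb-DXd/IMQ than under saline, and extensive death of tumor cells by histology. The part of tumor size and cell death in the values given here was not tested. The treatment field of the labels calls the control PBS, while the sample titles and the study call it saline. Each sample is the tumor of a separate mouse, and all tumors come from 1 cell line. The spread between tumors therefore holds differences between hosts and grafts of that line. With 1 library per tumor it also holds differences in tissue sampling and library preparation, which cannot be told apart from them.

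TLRs fall into a group displayed at the cell surface, which binds lipids, lipopeptides and flagellin, and a group held in endosomes, which binds RNA or DNA. Most signal through the adaptor MYD88, and TLR3 signals through TICAM1, toward NF-kB, the interferon regulatory factors and the release of cytokines and type I interferon. In tumors they are found on infiltrating macrophages, dendritic cells and other leukocytes, and several are also made by carcinoma cells.

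The authors deposited raw counts per gene and tumor, which summed to between 34591912 and 69582375 counts. Levels are given as CPM, counts scaled to a common library size after TMM, and genes are compared with each other only in TPM, which also divides by gene length. A floor of 3 counts corresponded to 0.0439 to 0.0843 CPM, which covers counting error only, and every receptor lay above it in all 8 tumors. Values of single tumors are listed in the order of tumors 1 to 4 of each group, and means are given ± SD with n = 4 tumors.

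The labels name the tissue as TNBC, and the levels of markers were read beside that name. All 8 listed markers of epithelial carcinoma cells were measured in each tumor, with Krt18, a keratin of simple epithelium, the most abundant at 637 ± 37.1 CPM in saline and 718 ± 174 CPM in mAb-DXd/IMQ tumors. Of the receptors whose lack defines TNBC, Pgr had 0.367 ± 0.281 and 0.578 ± 0.191 CPM, and Esr1 had 19.1 ± 1.14 and 15.7 ± 1.60 CPM. Erbb2, the gene of HER2, was present at 102 ± 19.7 and 101 ± 14.1 CPM.

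Among the receptor genes, positions in the table matched the GRCm38 annotation for 10 of 10. The surface receptors lie on chromosome 5 (Tlr1, ENSMUSG00000044827, from 64924679 to 64933563, minus strand, and Tlr6, ENSMUSG00000051498, from 64952031 to 64960097, minus strand) and on 3 further autosomes. These are Tlr2 (ENSMUSG00000027995, chromosome 3 from 83836272 to 83841767, minus strand), Tlr4 (ENSMUSG00000039005, chromosome 4 from 66827584 to 66930284, plus strand) and Tlr5 (ENSMUSG00000079164, chromosome 1 from 182954788 to 182976044, plus strand). Of the endosomal receptors, X-linked genes were Tlr7 (ENSMUSG00000044583, from 167304929 to 167330558, minus strand), Tlr8 (ENSMUSG00000040522, from 167242696 to 167264329, minus strand) and Tlr13 (ENSMUSG00000033777, from 106143204 to 106160493, plus strand). Tlr3 (ENSMUSG00000031639) lies on chromosome 8 from 45395665 to 45411080 on the minus strand, and Tlr9 (ENSMUSG00000045322) on chromosome 9 from 106222598 to 106226883 on the plus strand. Neighboring pairs were Tlr1 with Tlr6, 18467 bases apart, and Tlr7 with Tlr8, 40599 bases apart, each pair on the same strand with 0 annotated genes between. Tlr6 and Tlr9 have 2 exons, Tlr2 and Tlr13 have 3, and Tlr8 has 2 to 3 depending on the transcript. Tlr1 and Tlr4 have 3 to 4 exons, Tlr7 has 3 to 5, Tlr5 has 1 to 4, and Tlr3 has the most at 6 to 7. The Tlr4 gene spans 102701 bases, against 4286 for Tlr9, the shortest of the receptors.

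The exons of Tlr1 and Tlr6 share 259 windows of 100 bases, which were 7.89% of the windows of Tlr1 and 7.09% of those of Tlr6, so reads from these stretches could be assigned to either gene and both values carry that uncertainty. Tlr3 exons overlap 381 bases of an antisense gene, Gm45542, to which 0 counts were assigned, and the strand setting of the counting is not given in the sources used here. The other 7 receptors shared 0 such windows with any gene.

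Sequence upstream of the start was available for 8 of the 10 receptors, as 10 entries of 250 bases from RefSeq on GRCm38.p6, and there was no entry for Tlr4 and Tlr7. Entries of 5 receptors, 1 for each, are shown because 4 of them (Tlr1, Tlr8, Tlr9 and Tlr13) varied together from tumor to tumor and the other (Tlr6) was the receptor whose groups did not overlap, as given further on. Each run is written in the direction of its gene and holds no annotated exonic base. Capitals mark the PU box letters GAGGAA, on either strand, in Tlr1, Tlr8, Tlr9 and Tlr13, and overlapping matches to the interferon-stimulated response element (GAAA, any 2 bases, GAAA), on the other strand, in Tlr6. The runs lie at chr5:64933564-64933808 on the minus strand (Tlr1), chrX:167264330-167264579 on the minus strand (Tlr8), chr9:106222348-106222597 on the plus strand (Tlr9), chrX:106143025-106143203 on the plus strand (Tlr13) and chr5:64959167-64959416 on the minus strand (Tlr6). All lie outside the receptor's own gene except that of Tlr6, which lies in an intron of the gene as annotated. Tlr6 has another entry, not shown, directly before the annotated start of the gene (chr5:64960098-64960298 after exonic bases were left off), with 0 matches to the interferon-stimulated response element and 3 to the TATA letters, so the element in capitals belongs to the intronic entry only. The other entry of Tlr1 lies within the gene and is mostly exonic (211 of 250 bases).
Tlr1: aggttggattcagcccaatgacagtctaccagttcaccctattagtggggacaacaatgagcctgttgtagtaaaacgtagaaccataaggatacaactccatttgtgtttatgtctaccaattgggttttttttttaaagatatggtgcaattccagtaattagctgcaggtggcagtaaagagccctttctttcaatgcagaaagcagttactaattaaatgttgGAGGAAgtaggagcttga
Tlr8: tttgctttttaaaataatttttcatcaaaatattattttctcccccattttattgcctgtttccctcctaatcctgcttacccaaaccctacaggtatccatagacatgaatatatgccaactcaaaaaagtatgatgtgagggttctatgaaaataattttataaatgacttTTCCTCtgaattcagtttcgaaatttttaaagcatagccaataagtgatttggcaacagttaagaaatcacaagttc
Tlr9: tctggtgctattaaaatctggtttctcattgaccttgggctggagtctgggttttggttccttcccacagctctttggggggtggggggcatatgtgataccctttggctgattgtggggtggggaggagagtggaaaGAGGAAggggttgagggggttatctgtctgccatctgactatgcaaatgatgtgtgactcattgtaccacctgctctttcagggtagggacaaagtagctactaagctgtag
Tlr13: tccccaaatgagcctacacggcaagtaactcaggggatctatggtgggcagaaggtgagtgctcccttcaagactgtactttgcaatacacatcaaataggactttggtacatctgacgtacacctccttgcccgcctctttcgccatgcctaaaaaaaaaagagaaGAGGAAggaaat
Tlr6: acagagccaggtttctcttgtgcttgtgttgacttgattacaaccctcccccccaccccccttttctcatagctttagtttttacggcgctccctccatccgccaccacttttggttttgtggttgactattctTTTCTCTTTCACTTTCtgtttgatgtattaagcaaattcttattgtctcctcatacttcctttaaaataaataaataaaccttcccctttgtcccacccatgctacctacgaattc

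Both strands were searched for 7 motifs, and a match is a description of these letters only. The matches in capitals did not overlap a match to another of the motifs. The PU box letters were found in 4 of 8 receptors, at 23 (Tlr1), 77 (Tlr8), 112 (Tlr9) and 83 (Tlr13) bases before the start, and in 23.3% of all 32851 promoters. Of all promoters, 2.98% held the interferon-stimulated response element that was found in Tlr6. The C/EBP letters TTGCNNAA (9.56% of all promoters) were found in Tlr3, Tlr6 and Tlr8. The NF-kB letters (GGG, A or G, any base, any base, C or T, C or T, CC) were found in Tlr2 and Tlr3 and in 7.25% of all promoters. The AP-1 letters TGANTCA (6.75%) occurred in Tlr9, the TATA letters TATAAA (12.4%) in Tlr6 and Tlr8, and the GC box letters GGGCGG (32.7%) in Tlr2 and Tlr5. The only entry of Tlr3 lies within the annotated gene (178 exonic and 72 intronic bases), so its matches are not upstream of that gene. In the Tlr2 entry 159 of 250 bases are exonic and hold its GC box letters, while its NF-kB letters lie outside the gene.

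Tlr2 and Tlr3 were the most abundant receptor transcripts and Tlr5 the least abundant. By mean TPM over the 8 tumors, the order was Tlr2 (61.5 ± 6.89, SD, n = 8), Tlr3 (48.0 ± 9.39), Tlr1 (23.2 ± 7.18), Tlr4 (22.4 ± 5.39), Tlr13 (22.2 ± 6.88), Tlr6 (13.4 ± 1.85), Tlr8 (12.1 ± 6.74), Tlr9 (8.17 ± 3.35), Tlr7 (8.08 ± 3.71) and Tlr5 (3.51 ± 0.979). Neighbors in this order overlapped in range in each case. Within tumors, Tlr2 TPM exceeded Tlr3 TPM in 7 of 8 and Tlr3 exceeded Tlr1 in 7 of 8, while Tlr1 exceeded Tlr4 in 3 of 8 and Tlr4 exceeded Tlr13 in 5 of 8, so Tlr1, Tlr4 and Tlr13 were not ranked by these tumors. Tlr13 exceeded Tlr6 in 8 of 8 tumors and Tlr7 exceeded Tlr5 in 8 of 8, whereas Tlr9 exceeded Tlr7 in 4 of 8. Summed over the 10 receptors, TPM was 237 ± 27.7 in saline and 209 ± 32.6 in mAb-DXd/IMQ tumors, with overlapping groups. The endosomal receptors held 44.1 ± 1.60% and 44.4 ± 1.38% of that sum.

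**Figure D1:**
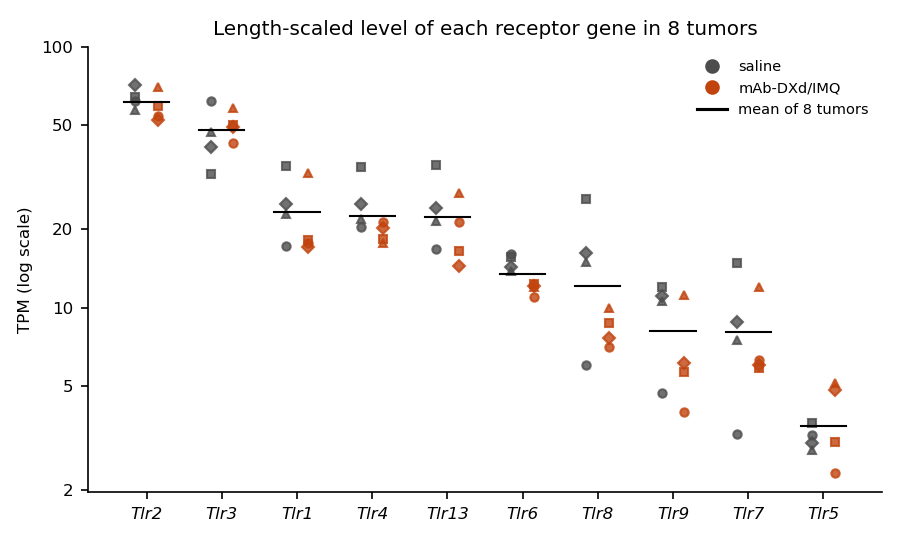
Level of each receptor gene in TPM (vertical axis, log scale) in every tumor, with saline tumors in grey, mAb-DXd/IMQ tumors in orange, a symbol for each tumor number and a black line at the mean of 8 tumors. By mean, Tlr2 (61.5 TPM) and Tlr3 (48.0 TPM) lie above the other receptors, and Tlr5 (3.51 TPM) lies lowest. In saline tumor 2, Tlr3 (32.7 TPM) lies below Tlr13 (35.4 TPM), Tlr1 (34.9 TPM) and Tlr4 (34.6 TPM).

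Between mAb-DXd/IMQ and saline tumors, 0 of the 10 receptor genes passed an FDR of 0.05 together with an absolute log2 fold change above 0.58 in edgeR's quasi-likelihood test, against 1.06% of the 18511 genes tested (197 genes). DESeq2 and limma-voom also called 0 receptors. At an unadjusted p under 0.05 there were 2 receptors, Tlr6 and Tlr8, and 18.9% of all tested genes. The groups did not overlap for 1 receptor, Tlr6, which was lower in each mAb-DXd/IMQ tumor, against 13.1% of tested genes without overlap in either direction and 7.1% in the lower direction. Log2 fold changes were below 0 for 8 receptors and above 0 for Tlr3 and Tlr5, with a median of -0.25, beside a median of 0.02 and 47.4% below 0 over all tested genes. These directions held under all 3 other scalings. The median rested partly on single tumors, and was -0.41 without saline tumor 1, -0.06 without saline tumor 2 and -0.14 without mAb-DXd/IMQ tumor 4. The call of Tlr8 depended on 1 library, since without saline tumor 1 it passed (log2 fold change -1.19, adjusted p = 0.0294, edgeR). The number of genes past the thresholds among all tested genes also depended on single libraries and was 111 without saline tumor 2, 10 without saline tumor 3 and 11 without saline tumor 4. It was 76, 88 and 12 without mAb-DXd/IMQ tumors 2, 3 and 4.

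**Figure D2:**
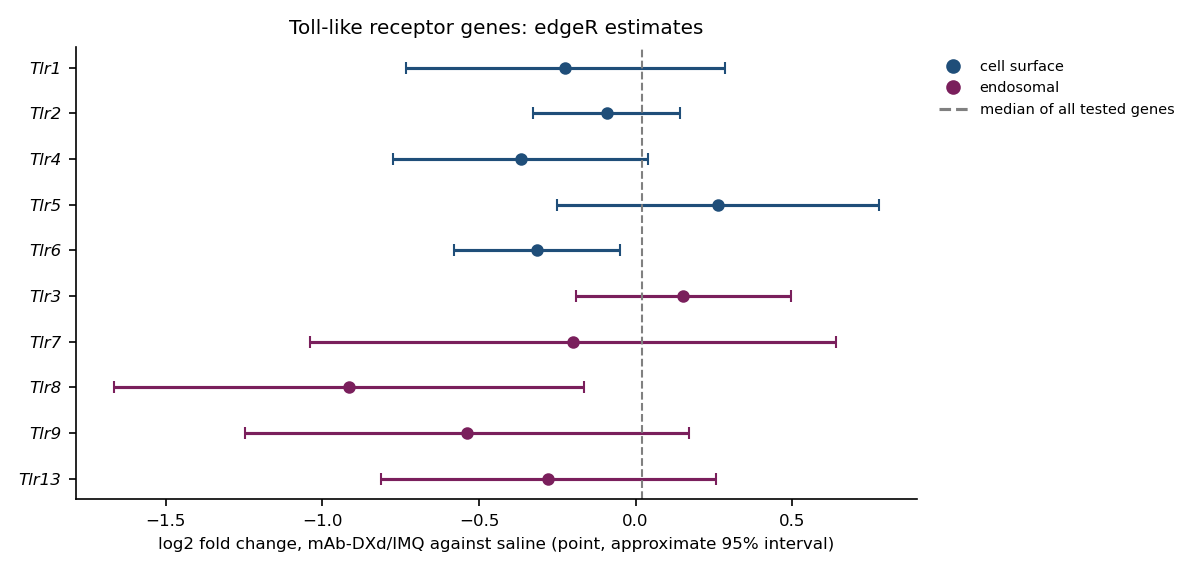
Log2 fold change of each receptor gene, mAb-DXd/IMQ against saline (horizontal axis), as a point with its approximate 95% interval, in blue for surface and purple for endosomal receptors, with a dashed line at the median of all tested genes (0.02). The intervals of Tlr6 (-0.58 to -0.05) and Tlr8 (-1.67 to -0.16) lie below 0, and 0 receptors passed the adjusted test.

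Among the surface receptors, Tlr6 separated the groups by a small margin. TLR6 pairs with TLR2 to bind diacylated lipopeptides. Tlr6 had 20.3, 20.8, 18.4 and 18.9 CPM in saline tumors and 16.5, 16.2, 14.2 and 16.2 CPM in mAb-DXd/IMQ tumors. Each mAb-DXd/IMQ tumor lay below each saline tumor, and the spread was narrow, with the highest saline tumor 1.13 times the lowest. The log2 fold change was -0.32 (standard error (SE) 0.12, interval -0.58 to -0.05, adjusted p = 0.194, edgeR), and over all alternatives it lay between -0.37 and -0.27.

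Tlr1, whose product pairs with TLR2 to bind triacylated lipopeptides, had 19.5, 41.6, 27.2 and 29.6 CPM in saline tumors and 23.9, 21.5, 34.9 and 20.6 CPM in mAb-DXd/IMQ tumors. Saline tumor 2 was highest and saline tumor 1 lowest, so the saline group spanned the whole mAb-DXd/IMQ group (log2 fold change -0.22, SE 0.23, adjusted p = 0.644, edgeR). Without saline tumor 2 its log2 fold change was -0.01, and without mAb-DXd/IMQ tumor 3 it was -0.42. Tlr2 itself had 63.4, 69.1, 61.2 and 76.5 CPM beside 66.2, 63.0, 67.1 and 57.1 CPM. Its tumors lay close together in both groups, and the log2 fold change of -0.09 had an interval from -0.33 to 0.14 (adjusted p = 0.688, edgeR) and was -0.14 without saline tumor 3 and -0.02 without saline tumor 4. In TPM, Tlr2 was 4.27 ± 0.501 times Tlr6 in saline and 4.9996 ± 0.630 times Tlr6 in mAb-DXd/IMQ tumors, with overlapping groups.

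Tlr4, the lipopolysaccharide receptor, had 38.6, 68.4, 43.3 and 49.4 CPM in saline tumors and 47.4, 35.8, 31.4 and 40.3 CPM in mAb-DXd/IMQ tumors. Of the latter, 2 lay below every saline tumor, and the difference between group means was smaller than the SD of 13.1 CPM among saline tumors (log2 fold change -0.37, SE 0.19, adjusted p = 0.314, edgeR). Without saline tumor 2 the log2 fold change was -0.18. Tlr5, the flagellin receptor, had 5.29, 6.16, 4.84 and 5.15 CPM in saline and 4.48, 5.16, 7.80 and 8.32 CPM in mAb-DXd/IMQ tumors. The treated tumors were split, with tumors 3 and 4 above and tumor 1 below every saline tumor (log2 fold change 0.26, SE 0.23, adjusted p = 0.582, edgeR, 0.40 without treated tumor 1 and 0.12 without treated tumor 4).

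**Figure D3:**
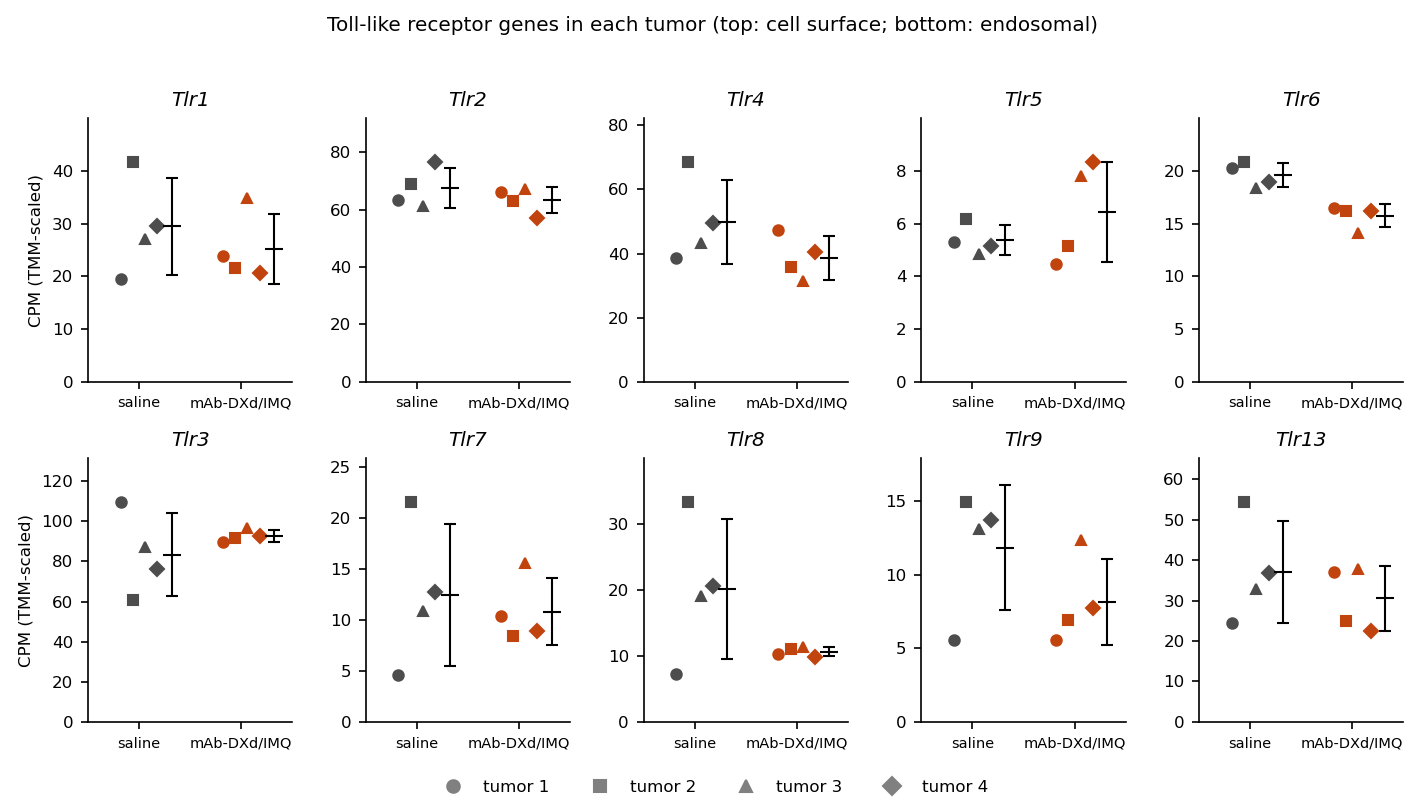
CPM of each receptor gene (vertical axes, each starting at 0) in the saline (grey) and mAb-DXd/IMQ (orange) tumors, with a symbol for each tumor number and a bar for mean ± SD of 4 tumors, surface receptors above and endosomal receptors below. Tlr6 is the only panel without overlap (18.4 to 20.8 against 14.2 to 16.5 CPM), and the Tlr8 values of mAb-DXd/IMQ tumors (9.89 to 11.4 CPM) fall between the lowest saline tumor (7.34 CPM) and the other saline tumors.

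The endosomal receptors TLR7 and TLR8 sense single-stranded RNA and imidazoquinolines, and mouse TLR8 is known to respond more weakly than human TLR8 to many of these compounds. Tlr8 had 7.34, 33.3, 19.1 and 20.6 CPM in saline tumors and 10.2, 11.1, 11.4 and 9.89 CPM in mAb-DXd/IMQ tumors. Saline tumors differed among themselves by 4.54 times from lowest to highest and mAb-DXd/IMQ tumors by 1.15 times. All treated tumors lay below saline tumors 2, 3 and 4 and above saline tumor 1. The log2 fold change was -0.92 (SE 0.34, interval -1.67 to -0.16, adjusted p = 0.183, edgeR), which placed Tlr8 at percentile 2.23 of the fold changes of all tested genes. The 2 saline tumors at the ends of the range moved it in opposite directions, to -1.19 without tumor 1 (adjusted p = 0.0294, edgeR) and to -0.56 without tumor 2 (adjusted p = 0.395, edgeR).

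Tlr7 had 4.56, 21.5, 10.9 and 12.8 CPM in saline tumors and 10.4, 8.46, 15.6 and 8.88 CPM in mAb-DXd/IMQ tumors. The same saline tumors were lowest and highest as for Tlr8, 4.72 times apart, and enclosed all treated tumors, of which tumor 3 was highest. The log2 fold change was -0.20 with a wide interval, from -1.04 to 0.64 (SE 0.38, adjusted p = 0.823, edgeR), and it was -0.48 without saline tumor 1 and 0.20 without saline tumor 2, a change of sign.

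Within each tumor, Tlr8 stood in a different proportion to Tlr7 in the groups. The ratio of Tlr8 TPM to Tlr7 TPM was 1.83, 1.76, 2.00 and 1.84 in saline tumors and 1.12, 1.49, 0.833 and 1.27 in mAb-DXd/IMQ tumors. Although the saline tumors differed more than 4-fold in either gene, their ratios stayed close together (1.86 ± 0.100), and all 4 treated tumors lay below them (1.18 ± 0.275). The ratio was formed after its values were seen, so it is a description without a test.

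**Figure D4:**
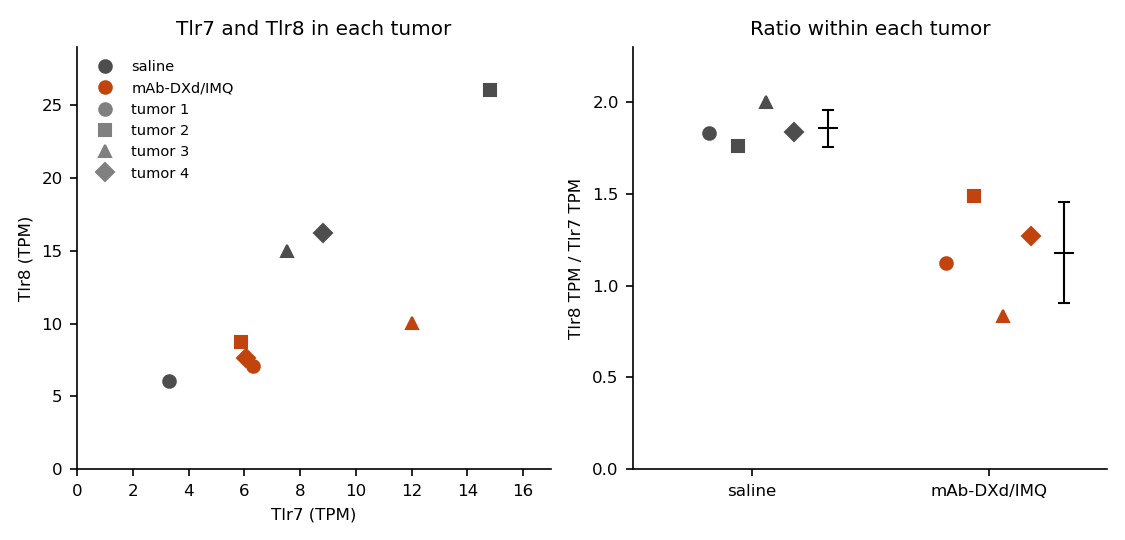
Left, Tlr8 TPM (vertical axis) against Tlr7 TPM (horizontal axis) in each tumor, saline in grey and mAb-DXd/IMQ in orange, with a symbol for each tumor number. Right, the ratio of Tlr8 to Tlr7 TPM with mean ± SD of 4 tumors, which ran from 1.76 to 2.00 (saline) and from 0.833 to 1.49 (mAb-DXd/IMQ).

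Tlr9, which encodes the sensor of unmethylated CpG DNA, had 5.56, 14.9, 13.1 and 13.7 CPM in saline tumors and 5.55, 6.94, 12.3 and 7.70 CPM in mAb-DXd/IMQ tumors. Saline tumor 1 and mAb-DXd/IMQ tumor 3 stood apart from the rest of their groups, and saline tumor 1 alone made the groups overlap (log2 fold change -0.54, SE 0.32, adjusted p = 0.399, edgeR). Without mAb-DXd/IMQ tumor 3 the log2 fold change was -0.81. Tlr13, a sensor of bacterial ribosomal RNA in mice, had 24.4, 54.3, 32.8 and 36.8 CPM in saline and 37.0, 25.0, 37.8 and 22.5 CPM in mAb-DXd/IMQ tumors. The treated tumors formed a higher and a lower pair inside or near the saline range (log2 fold change -0.28, SE 0.24, adjusted p = 0.576, edgeR), and the log2 fold change was -0.44 without saline tumor 1 and -0.04 without saline tumor 2.

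Tlr3, the sensor of double-stranded RNA, had 109, 60.6, 87.2 and 76.5 CPM in saline tumors and 89.8, 91.8, 96.8 and 92.7 CPM in the treated tumors. Its order among saline tumors was the reverse of that of Tlr8, with tumor 1 highest and tumor 2 lowest, and the treated tumors lay within the saline range and close to each other (SD 2.91 CPM, against 20.5 CPM in saline). The log2 fold change was 0.15 (SE 0.16, interval -0.19 to 0.50, adjusted p = 0.641, edgeR), with 0.31 without saline tumor 1 and 0.03 without saline tumor 2. As a share of the summed receptor TPM, Tlr3 ranged from 11.9% in saline tumor 2 to 29.3% in saline tumor 1, and averaged 24.2 ± 1.67% in mAb-DXd/IMQ tumors.

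The other Toll-like receptor genes tested, Tlr11 and Tlr12, whose products detect parasite profilin, did not pass either. Tlr11 (ENSMUSG00000051969) had 0.608, 2.35, 1.22 and 2.06 CPM in saline and 0.248, 0.493, 0.699 and 0.562 CPM in mAb-DXd/IMQ tumors, and 3 of 4 treated tumors lay below every saline tumor. Its log2 fold change was -1.64 (SE 0.48, adjusted p = 0.106, edgeR), and with DESeq2 it passed (adjusted p = 0.0211). Tlr12 (ENSMUSG00000062545) had 3.81, 15.3, 11.2 and 11.0 CPM beside 5.20, 6.12, 12.0 and 4.64 CPM, with the same low saline tumor and high treated tumor as Tlr9 (log2 fold change -0.56, SE 0.41, adjusted p = 0.491, edgeR, -0.31 without saline tumor 2 and -0.96 without treated tumor 3).

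Several receptors followed each other from tumor to tumor. Saline tumor 2 was the highest of all 8 tumors for 7 receptors, saline tumor 1 was the lowest saline tumor for 6, and mAb-DXd/IMQ tumor 3 was the highest treated tumor for 7. Pearson's r of log2 CPM was computed for all 45 pairs over the 8 tumors, which share their library scaling and 2 treatment groups, and is given as a description. Over all 45 pairs the median r was 0.371, with a range from -0.938 to 0.926. For the 10 pairs among Tlr1, Tlr7, Tlr8, Tlr9 and Tlr13, which were picked out because they varied together, r lay between 0.654 and 0.926. After group means were removed it lay between 0.601 and 0.956. The closest pair was Tlr1 with Tlr7 (r = 0.926, rho = 0.976, and r = 0.830 over the 6 tumors nearest the median of Tlr1). For Tlr7 with Tlr8, r was 0.803 (rho = 0.857) and 0.934 after group means were removed, but 0.360 over the 6 tumors nearest the median of Tlr7, so that relation rests on the outer tumors. Tlr3 ran opposite to these 5 receptors, with r from -0.938 (Tlr8, rho = -0.833) to -0.680 (Tlr9, rho = -0.667), and from -0.887 to -0.117 over 6 tumors. Tlr6 followed none of them closely, with r from -0.442 to 0.716 across the other 9 receptors.

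The proportions of the family followed the same split. Tlr3 held 29.3%, 11.9%, 21.4% and 17.2% of the summed receptor TPM in saline tumors and 22.8%, 25.3%, 22.8% and 25.9% in mAb-DXd/IMQ tumors. The other endosomal receptors (Tlr7, Tlr8, Tlr9 and Tlr13) held 14.5%, 32.2%, 24.8% and 25.1% in saline and 20.6%, 18.6%, 23.7% and 18.0% in mAb-DXd/IMQ tumors. Where Tlr3 took a large share, as in saline tumor 1, these 4 receptors took a small share, so that the endosomal total stayed between 42.3% and 46.4% in all 8 tumors. Tlr2 held 27.1 ± 2.96% in saline and 28.4 ± 1.23% in mAb-DXd/IMQ tumors. The TPM ratio of Tlr1 to Tlr6 was 1.07, 2.23, 1.65 and 1.74 in saline and 1.61, 1.48, 2.74 and 1.42 in mAb-DXd/IMQ tumors, with treated tumor 3 highest of all.

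Genes with the profile most like that of Tlr7 and Tlr8 were sought among 14646 tested genes with a mean of at least 1 CPM. They were picked for the highest r in these same tumors, so a high r is a result of the picking. Their r over 6 of the tumors is a description and no separate check. For Tlr7 these were AI662270 (r = 0.995, rho = 1.0), Ncf1, which encodes a subunit of the phagocyte NADPH oxidase (r = 0.990, rho = 0.976), Tnfrsf21 (r = 0.982, rho = 0.929), Tyrobp, a signaling adaptor of myeloid and natural killer cells (r = 0.980, rho = 0.976), and Zfp459 (r = 0.979, rho = 0.929). Over the 6 tumors nearest the median of Tlr7, r was 0.978, 0.945, 0.940, 0.894 and 0.930. For Tlr8 they were Gbgt1 (r = 0.987, rho = 1.0), Selenop (r = 0.982, rho = 0.929), Clec9a, a marker of cross-presenting dendritic cells (r = 0.981, rho = 0.976), Gm13710 (r = 0.981, rho = 0.952) and P2ry14 (r = 0.976, rho = 1.0), with r from 0.932 to 0.969 over 6 tumors.

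The macrophage and monocyte markers followed the same tumors. Macrophage and monocyte markers summed to 995, 3512, 1923 and 2217 CPM in saline tumors and 1945, 1581, 1697 and 1281 CPM in mAb-DXd/IMQ tumors, with C1qa the most abundant of the 12 by TPM, the scale on which the most abundant gene of each list is named. Saline tumor 1 was lowest and saline tumor 2 highest, as for Tlr7 and Tlr8. Of these genes 11 were lower and 1 was higher in mean, with 2 at an unadjusted p under 0.05, beside 18.9% of all tested genes. In log2 CPM over 8 tumors, the macrophage sum had r = 0.917 with Tlr8 (rho = 0.857), 0.905 with Tlr13 (rho = 0.810), 0.894 with Tlr7 (rho = 0.810) and 0.846 with Tlr1 (rho = 0.833). With 2 tumors left out these were 0.753, 0.783, 0.503 and 0.907. The sum had r = -0.939 with Tlr3 (rho = -0.905, and -0.706 over 6 tumors) and 0.267 with Tlr6 (rho = 0.381), among 150 such pairs of a receptor and a marker list. The macrophage list was not alone in this, since after group means were removed the sum of endothelial markers had r = 0.975 with Tlr8, 0.960 with Tlr7 and -0.934 with Tlr3, against 0.948, 0.922 and -0.938 for the macrophage sum. Over the 8 tumors as they were, endothelial r was 0.414 (Tlr8, rho = 0.357), 0.800 (Tlr7, rho = 0.548) and -0.532 (Tlr3, rho = -0.357), and with 2 tumors left out 0.361, 0.168 and 0.597. The sum of neutrophil markers, with Mmp9 the most abundant, ran the other way, with r = -0.644 for Tlr8 (rho = -0.548) and -0.332 for Tlr7 (rho = -0.310). It did not do so with 2 tumors left out (0.0435 and 0.511). That sum does not stand for each of its genes, since it was higher in mean in mAb-DXd/IMQ tumors while 5 of the 7 tested were lower. The part of these cells in the receptor values was not tested, and in bulk tumor RNA fewer cells of a type and less RNA per cell cannot be told apart.

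Setting Tlr7 and Tlr8 beside single macrophage genes gave different pictures by gene. Tlr7 TPM was 5.10%, 5.15%, 5.20% and 5.19% of the TPM of Csf1r, the receptor for macrophage growth factor, in saline tumors, and 6.22%, 6.50%, 8.37% and 8.64% in mAb-DXd/IMQ tumors. All treated tumors were higher, and the saline tumors were nearly equal (5.16 ± 0.0437% against 7.43 ± 1.25%). Tlr8 TPM was 9.35%, 9.06%, 10.4% and 9.54% of Csf1r TPM in saline and 6.998%, 9.68%, 6.97% and 11.0% in mAb-DXd/IMQ tumors, which overlapped. Relative to C1qa, Tlr7 overlapped between groups (0.637 ± 0.141% and 0.637 ± 0.219%), and Tlr8 had means of 1.18 ± 0.249% and 0.716 ± 0.132%, with groups that almost touched (lowest saline tumor 0.8202%, highest treated tumor 0.8197%). Relative to Ptprc, the gene of the leukocyte antigen CD45, both receptors overlapped. These ratios are descriptions without a test.

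Markers of other leukocytes were read in the same way, and their part in the receptor values was not tested. Ptprc had 125, 176, 151 and 170 CPM in saline tumors and 125, 121, 193 and 119 CPM in mAb-DXd/IMQ tumors, where tumor 3 was high, as it was for Tlr1 and Tlr9. Its r was 0.918 with Tlr1 (rho = 0.905) and 0.864 with Tlr9 (rho = 0.619). Conventional dendritic cell markers (8 genes, 1 higher and 7 lower, most abundant Itgax) summed to 91.4, 119, 108 and 117 CPM and to 90.5, 90.6, 156 and 92.5 CPM, again with treated tumor 3 highest. The means of that sum were close (109 ± 12.6 and 107 ± 32.3 CPM), while the median log2 fold change of its genes was -0.73. Plasmacytoid dendritic cells are known for high Tlr7 and Tlr9, and their part in these values was not tested. Their markers (5 genes, 0 higher and 5 lower, most abundant Cox6a2) summed to only 4.74, 4.02, 6.32 and 9.01 CPM and to 3.05, 4.18, 2.40 and 5.14 CPM. B-cell markers (4 of 7 tested, 2 higher and 2 lower, most abundant Cd79b) were as scarce, at 1.76, 2.82, 1.36 and 3.496 CPM and 2.45, 1.58, 2.10 and 2.14 CPM. Neutrophil markers (7 of 8 tested, 2 higher and 5 lower, most abundant Mmp9) summed to 576, 229, 532 and 282 CPM and to 563, 376, 832 and 356 CPM. That sum was higher in mean in the treated tumors, while the median log2 fold change of its genes was -0.80. Groups did not overlap for 3 of its genes, all lower, beside 7.1% of all tested genes in that direction. An unadjusted p under 0.05 was found for 4 of the 7 neutrophil, 3 of the 8 conventional and 1 of the 5 plasmacytoid dendritic cell and 2 of the 4 B-cell genes tested, beside 18.9% of all tested genes.

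T-cell markers were the leukocyte list whose groups did not overlap. All 7 genes were lower in mean and 6 had an unadjusted p under 0.05 (edgeR), beside 47.4% and 18.9% of all tested genes. Groups did not overlap for 4 of them, all lower, beside 7.1% of all tested genes in that direction. With Cd8a the most abundant, the 7 genes summed to 73.1, 109, 105 and 95.1 CPM in saline tumors and to 62.9, 52.7, 33.7 and 45.9 CPM in mAb-DXd/IMQ tumors. Tlr6, the receptor without overlap, had r = 0.886 with this sum over 8 tumors (rho = 0.881), 0.721 over 6 tumors, and 0.503 after group means were removed. Both were singled out for groups that did not overlap, which by itself raises r over 8 tumors, and after group means were removed Tlr4 was closer to the T-cell sum (r = 0.745, with 0.783 over the 8 tumors, rho = 0.786, and 0.538 over 6). Cd4 (log2 fold change -1.91, adjusted p = 0.0201, edgeR) and Cd8a (-1.22, adjusted p = 0.0201, edgeR) fell, as did Csf3r of the neutrophil list (-0.80, SE 0.16, adjusted p = 0.0402, edgeR). Csf3r kept its call in 1 of the 8 fits that each omitted a tumor (without mAb-DXd/IMQ tumor 1) and lost it in the others, with adjusted p from 0.0587 to 0.134 (edgeR). Scaling also ended it, with adjusted p = 0.0501 under upper-quartile factors and 0.0601 under library totals alone (edgeR). Among the same fits, Cd4 and Cd8a lost theirs without saline tumor 3 (adjusted p = 0.0657 for both), saline tumor 4 (0.0846 for both) and mAb-DXd/IMQ tumor 4 (0.0694 for both).

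Carcinoma and stromal markers differed between tumors as well, and their part was likewise not tested. The 8 carcinoma markers, all higher in mean, summed to 3024, 2129.6, 3033 and 2726 CPM in saline and 4351, 3520.1, 2612 and 2531 CPM in mAb-DXd/IMQ tumors, and saline tumor 2, the highest tumor for 7 receptors, was lowest here. Tlr5 was the receptor most opposed to this sum after group means were removed (r = -0.945, against -0.667 over the 8 tumors, rho = -0.810, and -0.892 over 6). Sums ran from 17.6 to 31.0 CPM in saline and from 22.4 to 25.5 CPM in mAb-DXd/IMQ tumors for natural killer cells (4 genes, 3 higher, most abundant Ncr1), from 2356 to 5563 and from 2365 to 6270.3 CPM for fibroblasts (6 genes, 3 higher, most abundant Col1a1), and from 90.1 to 206 and from 175 to 204 CPM for endothelium (6 genes, all higher, most abundant Cdh5). For neighboring tissue they were 30.1 to 352 and 49.4 to 260 CPM in skeletal muscle (4 genes, all lower, most abundant Acta1), 18.6 to 34.0 and 15.3 to 28.2 CPM in fat (4 genes, all lower, most abundant Fabp4), and 6.16 to 42.0 and 6.003 to 179 CPM in epidermis (3 of 5 tested, all higher, most abundant Krt5). An unadjusted p under 0.05 was found for 2 of the 4 natural killer cell, 1 of the 6 fibroblast and 1 of the 6 endothelial genes (edgeR). It was found for 0 genes of carcinoma cells, muscle, fat and epidermis, and for 18.9% of all tested genes. Among all listed markers, 0 genes had a count of 0 in every tumor, and Ly6g, Ms4a1, Pax5, Fcer2a, Adipoq, Plin1, Cidec, Krt1, Flg, Lor and Krt5 had a count of 0 in at least 1 tumor.

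Around the receptors, 72 genes of ligand transfer, trafficking, signaling, inhibition and output were read from the same fit. Of the 70 tested (Il12a and Ifnb1 had too few counts), 22 had higher and 48 lower means in mAb-DXd/IMQ tumors, with a median log2 fold change of -0.16 beside 0.02 over all tested genes. Past both thresholds were 2 genes, Tab3 and Il1b, both lower, and 0 higher genes (edgeR), while 23 had an unadjusted p under 0.05, beside 1.06% and 18.9% of all tested genes. DESeq2 called 5 (1 higher, 4 lower) of its 787 genes in all, and limma-voom 1 (lower) of its 174. Groups did not overlap for 2 higher and 9 lower genes, beside 13.1% of all tested genes in either direction and 7.1% in the lower direction. The count of 2 was 3 without saline tumor 1 (Irf7, Il1b and Il12b) and without saline tumor 2 (Irf7, Il1rl1 and Il1b). It was 0 without saline tumor 3, saline tumor 4 or mAb-DXd/IMQ tumor 4, and 1 (Il1b) without mAb-DXd/IMQ tumor 1, 2 or 3. Exons of several of these genes overlap those of a neighbor, and their values are uncertain, by 838 bases on the same strand for Ticam2 (Tmed7, with 10663% of its counts) and on the other strand by 182 for Cd180 (Mast4, 1015%), 192 for Irak3 (Tmbim4, 1521%), 395 for Irak4 (Twf1, 249%), 411 for Irf5 (Tnpo3, 188%), 290 for Myd88 (Acaa1a, 184%), 45 for Irf7 (Phrf1, 40.8%) and 133 for Cxcl10 (Art3, 6.59%).

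**Figure D5:**
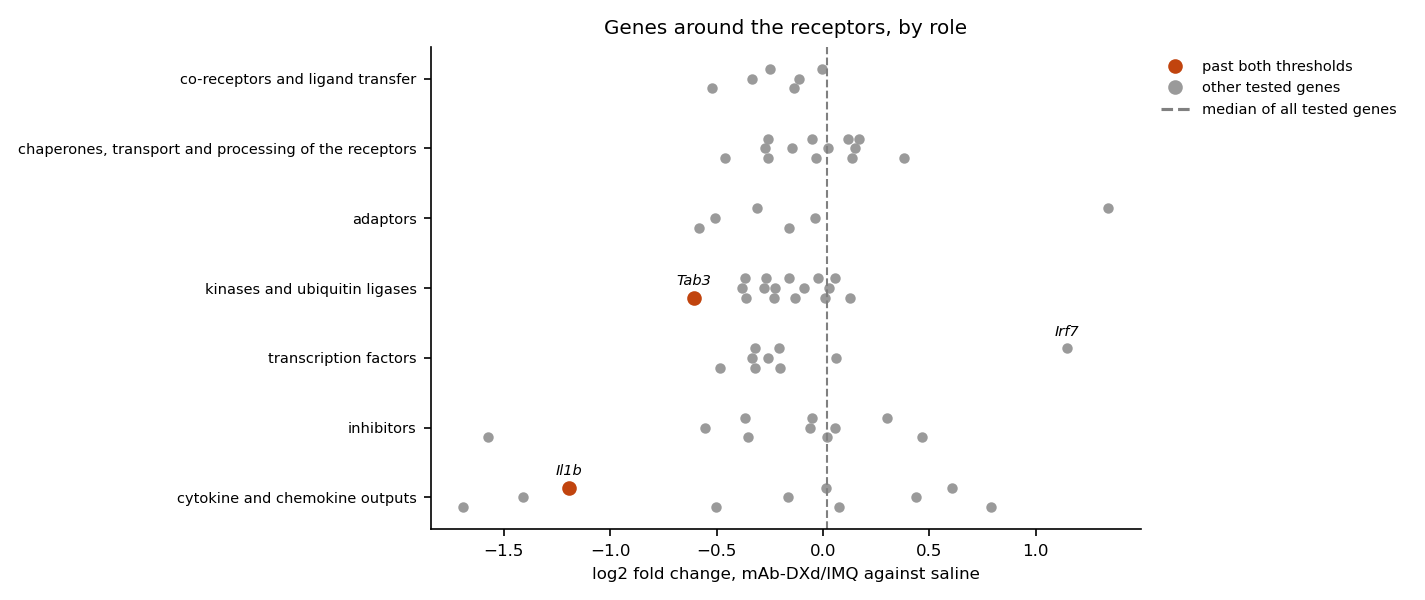
Log2 fold change, mAb-DXd/IMQ against saline (horizontal axis), of each tested gene around the receptors, in rows by role, with genes past both thresholds in orange, the others in grey and a dashed line at the median of all tested genes (0.02). Tab3 (-0.61) and Il1b (-1.19) are past the thresholds, and Irf7 (1.15) is the transcription factor farthest to the right.

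Co-receptors were all lower in mean (6 of 6, median -0.19), though none of the differences passed the edgeR test and 1 had an unadjusted p under 0.05, beside 18.9% of all tested genes. Cd14, which hands lipopolysaccharide to TLR4, had a log2 fold change of -0.52 (SE 0.23, adjusted p = 0.257, edgeR), which was -0.26 without saline tumor 4, and Ly96, the partner of TLR4 in binding it, had -0.11 (adjusted p = 0.817, edgeR, -0.21 and -0.01 without saline tumors 1 and 2). Cd180, a TLR4-like molecule of B cells and myeloid cells, had -0.01, with a change of sign in 6 of the 8 fits omitting a tumor, from -0.32 without mAb-DXd/IMQ tumor 3 up to 0.20 without mAb-DXd/IMQ tumor 4.

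Of the 13 genes for chaperones, transport and processing, 6 were higher and 7 lower (median -0.03), with 1 at an unadjusted p under 0.05, beside 18.9% of all tested genes. Unc93b1 escorts the endosomal receptors out of the endoplasmic reticulum, and had 62.2, 239, 143 and 144 CPM in saline and 113, 107, 121 and 85.8 CPM in mAb-DXd/IMQ tumors. It was lowest and highest in the same saline tumors as Tlr7 and Tlr8 (log2 fold change -0.46, adjusted p = 0.448, edgeR), which moved it to -0.72 (without tumor 1) and -0.13 (without tumor 2). Hsp90b1, the chaperone that folds most TLRs, had 457 ± 39.5 CPM in saline and 595 ± 78.7 CPM in treated tumors. Its groups did not overlap, with a log2 fold change of 0.38 (SE 0.13, adjusted p = 0.148, edgeR).

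The adaptors had 1 higher and 5 lower genes (median -0.24), with 1 at an unadjusted p under 0.05, beside 18.9% of all tested genes. Myd88, which serves all receptors here except TLR3, had 43.1 ± 1.33 and 41.9 ± 6.29 CPM, at log2 fold change -0.04 (adjusted p = 0.906, edgeR), which lay between -0.14 and 0.07 over the alternatives and was 0.07 without mAb-DXd/IMQ tumor 4. Ticam1, the adaptor of TLR3 and of internalized TLR4, had 17.5 ± 2.42 and 14.1 ± 2.11 CPM (log2 fold change -0.31, adjusted p = 0.319, edgeR). Ticam2, which links TLR4 to TICAM1, had -0.58 (adjusted p = 0.506, edgeR, -0.89 and -0.23 without saline tumors 1 and 2).

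Among the 16 kinases and ubiquitin ligases, 4 were higher and 12 lower (median -0.19). Groups did not overlap for 5, all lower, beside 7.1% of all tested genes in that direction, and 6 had an unadjusted p under 0.05, beside 18.9%. Tab3, an adaptor of the TAK1 kinase complex, had 45.7, 37.3, 36.3 and 41.0 CPM in saline and 22.3, 29.8, 25.2 and 28.0 CPM in mAb-DXd/IMQ tumors. It fell by 0.61 on the log2 scale (SE 0.13, adjusted p = 0.0451, edgeR) with all treated tumors below all saline tumors, but the call was lost in each of the 8 fits omitting a tumor, with adjusted p from 0.0569 (without mAb-DXd/IMQ tumor 1) to 0.153 (without saline tumor 4), and it held in 4 of 18 alternatives. It was also lost under upper-quartile factors (adjusted p = 0.0573), library totals alone (0.0621) and the gene length offset (0.0689, all edgeR) and with limma-voom (0.0502). Irak4, the first kinase recruited by MYD88, had 25.9, 32.2, 26.6 and 26.4 CPM and 25.1, 24.3, 26.1 and 19.2 CPM (log2 fold change -0.23, adjusted p = 0.381, edgeR, -0.15 without saline tumor 2 and -0.13 without treated tumor 4), and Traf6, the ubiquitin ligase that follows it, had -0.27 (adjusted p = 0.229, edgeR).

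Of the 9 transcription factors, Irf7 included, 2 were higher and 7 lower (median -0.26), and 6 had an unadjusted p under 0.05, beside 18.9% of all tested genes. Groups did not overlap for Irf7 (higher) and for Nfkb1, Rela and Relb (lower), beside 13.1% of all tested genes in either direction and 7.1% in the lower direction. IRF7 is the factor by which TLR7 and TLR9 induce type I interferon, and its gene is itself induced by interferon. Irf7 had 173, 55.2, 143 and 119 CPM in saline and 279, 249, 287 and 272 CPM in mAb-DXd/IMQ tumors. Every treated tumor lay above every saline tumor, and saline tumor 2 was lowest, but the log2 fold change of 1.15 missed the threshold (SE 0.27, adjusted p = 0.0591, edgeR). It passed without saline tumor 1 (1.36, adjusted p = 0.0433) and without saline tumor 2 (0.90, adjusted p = 0.0345), and in 4 of 18 alternatives in all, over which its adjusted p lay between 0.00126 and 0.175. Nfkb1, a subunit of NF-kB, had -0.48 without overlap of the groups (SE 0.13, adjusted p = 0.0812, edgeR), and Irf5, a factor downstream of MYD88, had -0.20 (adjusted p = 0.620, edgeR, -0.36 and -0.04 without saline tumors 1 and 2).

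Inhibitors of the pathway had 4 higher and 6 lower genes (median -0.06), and 3 had an unadjusted p under 0.05, beside 18.9% of all tested genes. Sigirr, a receptor that dampens TLR signaling, had the largest log2 fold change among them at 0.46 (adjusted p = 0.157, edgeR), and Il1rl1, the gene of ST2, the smallest at -1.58 (SE 0.46, adjusted p = 0.105, edgeR). Il1rl1 passed with DESeq2 (adjusted p = 0.00622) and without saline tumor 2 (-1.87, adjusted p = 0.0448, edgeR). Irak3, which restrains the other IRAK kinases in macrophages, had -0.55 (adjusted p = 0.357, edgeR, -0.34 without saline tumor 2).

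Among outputs, 5 of the 10 tested genes were higher and 5 lower (median -0.08), and 5 had an unadjusted p under 0.05, beside 18.9% of all tested genes. Il1b, the cytokine interleukin 1 beta, had 135, 110.0, 151 and 177 CPM in saline and 69.3, 52.2, 76.4 and 52.8 CPM in mAb-DXd/IMQ tumors. It fell by 1.19 on the log2 scale (SE 0.17, adjusted p = 0.0201, edgeR), and all treated tumors lay below all saline tumors. Of the 8 fits omitting a tumor, the call held in 5 and was lost without saline tumor 3 (adjusted p = 0.0665), saline tumor 4 (0.0846) and mAb-DXd/IMQ tumor 4 (0.0694, all edgeR). Tnf had 5.49, 2.82, 3.48 and 3.496 CPM and 5.55, 5.33, 11.5 and 4.08 CPM, a log2 fold change in the opposite direction (0.79, SE 0.34, adjusted p = 0.234, edgeR). Treated tumor 3, the highest treated tumor for most receptors, was also the highest for Tnf, and without it the log2 fold change was 0.38. Il6 was near 1 CPM in both groups (0.08, adjusted p = 0.939, edgeR), and its log2 fold change was -0.01 without saline tumor 3, -0.13 without treated tumor 3, -0.07 without treated tumor 4 and 0.29 without treated tumor 1. Il12b, a product of activated dendritic cells and macrophages, had 0.507, 3.14, 1.22 and 2.72 CPM and 0.660, 0.707, 0.546 and 0.422 CPM (-1.69, SE 0.52, adjusted p = 0.117, edgeR), and passed with DESeq2 (adjusted p = 0.0236) and without saline tumor 1 (-2.01, adjusted p = 0.0456, edgeR). Cxcl10, a chemokine induced by interferon, had 49.4 ± 21.6 and 66.9 ± 7.16 CPM (0.44, adjusted p = 0.429, edgeR, 0.20 without saline tumor 2).

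Unless another fit is named, fold changes come from the quasi-likelihood fit of all 8 tumors in edgeR, with p adjusted over all 18511 tested genes, and a receptor that missed the threshold was not thereby shown to be equal between groups. With 4 tumors per group, 1 time point and bulk RNA, neither receptor protein nor the cells that carried each transcript were measured.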

How the data were processed

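The values are the raw gene counts the authors deposited for 8 tumors, with gene length from the same table. The submitters' processing notes name HISAT2, HISAT, TopHat2 and mm39 without versions or roles. The coordinates in the table matched GRCm38 (GENCODE M21) for 98.3% of 54409 shared gene identifiers, which conflicts with mm39. The counting program and the strand setting are not given in the sources used here, and the authors' own code was not used. The control is called saline in the titles and PBS in the treatment field.

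Genes were kept by filterByExpr (minimum count 10, minimum total 15), scaled by TMM and tested with the quasi-likelihood F test of edgeR 4.0.16 in R 4.3.3, saline tumors 1 to 4 against mAb-DXd/IMQ tumors 1 to 4. P was adjusted by Benjamini-Hochberg over all tested genes, and a gene passed at an FDR under 0.05 with an absolute log2 fold change above 0.58. Standard errors were derived from the F statistic and are approximate, and 95% intervals use the t distribution with the degrees of freedom of the fit. Log2 CPM for correlations used a prior count of 2, with Pearson's r and Spearman's rho (rho) as descriptions. Alternatives were DESeq2 1.42.0, limma-voom (limma 3.58.1), 3 other scalings, 2 other filters, the FDR alone, the replicate number as a block, a gene length offset from a spline with 5 degrees of freedom, both together, and leaving out each tumor in turn. The steps were tried on simulated counts before use. The edgeR test called 37 of 92 genes given an absolute log2 fold change of 1 (40.2%). It called 79 of 103 genes given one of 2 (76.7%), and 6 of its 122 calls were false. A gene with a change of either size could thus be missed. Figures were drawn with matplotlib 3.10.9 in Python 3.11.15.

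The receptors and the lists of pathway and marker genes were chosen with earlier results of these data known. Genes named are the 10 receptors, Tlr11 and Tlr12, and in each role of the pathway every gene past the thresholds, otherwise the genes with the largest and smallest log2 fold change among those with a mean of at least 1 CPM. Always named are Cd14, Ly96, Unc93b1, Myd88, Ticam1, Irak4, Traf6, Irf5, Irf7, Irak3, Tnf, Il6, Il12b and Cxcl10. For markers these are the most abundant gene, those past the thresholds and those at 0, and the 5 genes most like Tlr7 and Tlr8.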

Additional observations from a re-analysis of the deposited data

Results flagged for a closer look

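In each group of 4 tumors, a value was set apart when the gap to its nearest neighbor, as a part of the range, exceeded the critical value of Dixon's test for 4 values. This picked out 8 of 102 groups of values, and about 1 in 20 groups (5.1 here) would be picked out by chance. The value of Irak4 in saline tumor 2 was 32.2 CPM against 25.9 to 26.6 CPM in the others (gap over range 0.890). Among mAb-DXd/IMQ tumors, Tlr6 was 14.2 CPM in tumor 3 against 16.2 to 16.5 CPM (0.850), and Cd14 was 55.1 CPM in tumor 1 against 42.6 to 43.7 CPM (0.911). Tumor 3 of that group also stood apart in the summed TPM of the receptors, 257 against 189 to 198 (0.862), and in the ratio of Tlr1 to Tlr6 TPM, 2.74 against 1.42 to 1.61 (0.853). The same tumor had 193 CPM of Ptprc against 119 to 125 CPM (0.910) and a sum of conventional dendritic cell markers of 156 CPM against 90.5 to 92.5 CPM (0.970). Epidermal markers summed to 179 CPM in mAb-DXd/IMQ tumor 2 against 6.003 to 8.99 CPM (0.983).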

How the results depend on the processing

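The number of genes past the thresholds, 197, was 358 with no filter on low counts and 787 with DESeq2, and 122 with the gene length offset. It was 14 with the replicate block, alone or with the offset, and the cause was not tested. Leaving out a tumor gave 10 to 203, with 111, 10 and 11 without saline tumors 2, 3 and 4 and 76, 88 and 12 without mAb-DXd/IMQ tumors 2, 3 and 4. The balance of directions followed the scaling, with 101 higher and 96 lower in the fit used, 145 and 73 with upper-quartile factors, and 118 and 76 with library totals alone. The count of receptors past the thresholds was 0 in each alternative except without saline tumor 1, where it was 1 (Tlr8, log2 fold change -1.19), and so 0 to 1 over the left-out tumors. The count of pathway genes, 2, was 1 with upper-quartile factors, library totals alone, limma-voom or the length offset, 0 with the replicate block with or without the offset, 3 with no filter on low counts (Tab3, Irf7 and Il1b), and 5 with DESeq2. It was 0 to 3 over the left-out tumors (1 without mAb-DXd/IMQ tumor 1, 2 or 3, 0 without saline tumor 3, saline tumor 4 or mAb-DXd/IMQ tumor 4). The log2 fold change of Tlr7 turned to 0.20 without saline tumor 2. With a tumor left out, log2 fold changes ranged from -0.42 to -0.01 (Tlr1), -0.14 to -0.02 (Tlr2), 0.03 to 0.31 (Tlr3), -0.48 to -0.18 (Tlr4), 0.12 to 0.40 (Tlr5), -0.35 to -0.27 (Tlr6), -0.48 to 0.20 (Tlr7), -1.19 to -0.56 (Tlr8), -0.81 to -0.39 (Tlr9) and -0.44 to -0.04 (Tlr13). Tumors with the same number showed no pairing in a check of their correlations (4 pairs, r from -0.170 to 0.0794), so the replicate block rests on a number alone. With the replicate block Il1b (adjusted p = 0.0587, edgeR), Cd4 (0.0695), Cd8a (0.0815) and Csf3r (0.117) missed the FDR, as they did with the length offset added (0.0546, 0.0748, 0.0847 and 0.124). Under the block alone their log2 fold changes were -1.19 (Il1b), -1.87 (Cd4), -1.24 (Cd8a) and -0.81 (Csf3r), close to those of the fit used. The lowest chi-square per degree of freedom between tumors of a group was 33.7, so no library was a repeat of another. Limits are 4 tumors per group of 1 cell line in 1 strain, a single time point, bulk RNA in which cell number and RNA per cell are mixed, no protein, and counts whose strand setting is unknown.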
